A study of Mus musculus with 2 samples.

Results

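Protein tyrosine phosphatases remove phosphate from tyrosine residues and so set how strongly a cell responds to its kinases. The family members here were the protein-coding genes of GENCODE vM21 whose symbol starts with Ptpn and a digit or with Ptpr and a letter, which gave 38 genes of 21951. Their Myb peaks were the ChIP-Seq peaks whose summit lay inside the gene or within 3 kb of it, and 90 of the 25793 deposited peaks met this rule, none of them for more than 1 member. At least 1 peak was listed at 26 of the 38 genes, which is 68.4%, where 46.4% of all protein-coding genes had one. The members are longer genes, with a median span of 94.5 kb against 17.4 kb, and shares at matched length are given with the classes.

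In these genes Ptpn stands for the nonreceptor enzymes, which lie in the cytoplasm, and Ptpr for the receptor-type enzymes, which span the cell membrane. In blood cells, CD45 (encoded by *Ptprc*) is carried on the surface of nearly all nucleated cells and removes the inhibitory phosphate from the tail of Src family kinases, and SHP-1 (*Ptpn6*) is recruited to the cytoplasmic tails of inhibitory receptors, where it dampens signaling. The members were placed in 4 classes by where each gene is known to be used: 5 blood genes (*Ptprc*, *Ptpn6*, *Ptpn7*, *Ptpn22* and *Ptprcap*, whose product is a partner of CD45 and no phosphatase), 9 neural genes, 4 genes of other tissues and 20 broadly expressed genes, some of which blood cells use as well. Myb is a transcription factor that blood progenitors need to renew and mature, and it binds DNA through a short motif around the bases AAC.

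Myb binding was profiled in the study in Lin– bone marrow cells of WT mice, the fraction left after cells with mature blood lineage markers are depleted, with a stated purity above 80%. There were 2 libraries, 1 precipitated with an antibody against Myb and 1 with nonspecific rabbit IgG, and no agent or further allele distinguished them. IgG served as the background of the peak calls and gives no values of its own here. With 1 library of each kind, no value here has a replicate, no test between groups of genes was made, and intervals are 95% intervals that cover counting error alone. A list of peaks holds no expression, so neither the purity of the cells nor the activity of any gene could be checked against markers.

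To set the bound DNA beside the values, the bases within 50 bp of the summit are given for the strongest peak of *Ptprc*, of *Ptpn6* and of the next 6 members in order of fold enrichment. A second window of *Ptprc*, chosen after its values were seen, is the one peak of that gene with a Myb motif. The sequences are the plus strand of mm10 (GRCm38), and capitals mark a Myb motif, which was C or T, then AAC, then G or T, then G, on either strand. It was found in 16.7% of all summit windows of this length. Of the 8 genes, *Ptpre* and *Ptprr* had the motif at their strongest summit.
Ptprc at chr1:138136593-138136693: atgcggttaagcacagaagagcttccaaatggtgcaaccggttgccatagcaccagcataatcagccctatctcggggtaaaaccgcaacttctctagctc
Ptpn6 at chr6:124741263-124741363: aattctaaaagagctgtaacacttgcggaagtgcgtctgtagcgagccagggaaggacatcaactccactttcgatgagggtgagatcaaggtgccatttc
Ptpre at chr7:135598726-135598826: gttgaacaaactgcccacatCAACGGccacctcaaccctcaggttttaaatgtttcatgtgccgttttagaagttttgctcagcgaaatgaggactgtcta
Ptpn22 at chr3:103914140-103914240: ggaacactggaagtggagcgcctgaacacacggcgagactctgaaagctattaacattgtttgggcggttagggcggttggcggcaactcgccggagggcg
Ptpra at chr2:130473162-130473262: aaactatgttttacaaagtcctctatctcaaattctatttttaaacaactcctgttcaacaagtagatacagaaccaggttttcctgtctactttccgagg
Ptpn7 at chr1:135133076-135133176: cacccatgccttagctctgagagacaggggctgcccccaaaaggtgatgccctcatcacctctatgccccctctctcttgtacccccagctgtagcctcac
Ptprr at chr10:116121741-116121841: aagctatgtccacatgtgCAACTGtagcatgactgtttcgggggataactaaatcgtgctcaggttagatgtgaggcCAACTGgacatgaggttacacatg
Ptpn13 at chr5:103491284-103491384: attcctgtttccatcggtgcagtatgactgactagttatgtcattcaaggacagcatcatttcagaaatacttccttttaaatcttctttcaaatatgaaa
Ptprc (second window) at chr1:138159185-138159285: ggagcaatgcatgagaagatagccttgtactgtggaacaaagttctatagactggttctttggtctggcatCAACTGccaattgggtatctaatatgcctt

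The windows differed in the motifs they held. *Ptpre* held CAACGG 30 bp before its summit, and *Ptprr* held CAACTG in 2 places. The window of *Ptprc* held the shorter form AACNG, where N is any base, in 4 places on the 2 strands, but not the full motif. *Ptpn22* held AACNG in 2 places, *Ptpra* and *Ptpn13* in 1 each, and the windows of *Ptpn6* and *Ptpn7* in 0. A motif match here describes letters only.

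*Ptprc*, at chr1:138062861-138175708 on the minus strand, carried 6 peaks over its 112.848 kb. At least as many were listed at 3.12% of protein-coding genes of any length, and 12.4% of genes of 50 to 200 kb had at least 5. Its strongest peak, at chr1:138136205-138137226 in intron 2 of the longest transcript, lay 39065 bp into the gene. The Myb signal at its summit was 11.5-fold the local IgG background and rested on 37 reads (26.1 to 51.0), where the background gave 2.03; the fold is taken after the Myb signal is scaled down and 1 is added to both, so it is lower than the plain ratio of reads. The peak at the 5′ end, at chr1:138174468-138176048, was enriched 8.27-fold with 30 reads (20.2 to 42.8), and its summit was 47 bp from an annotated start site of *Ptprc*. Their read intervals overlap, so the intronic and the start-site peak cannot be ordered by reads at this depth.

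The other 4 peaks of *Ptprc* were weaker. A peak at chr1:138158603-138159504, 16473 bp into the gene, was enriched 6.34-fold with 19 reads and held the motif CAACTG shown above. The remaining 3 reached 5.09, 4.95 and 3.92 on 15, 18 and 14 reads. Of the 6 summits, 4 lay within 22.6 kb of each other in intron 2.

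*Ptpn6*, at chr6:124720707-124738714 on the minus strand, had 3 listed peaks, but the strongest was closer to another gene. This peak, at chr6:124740579-124741705, was enriched 6.07-fold with 46 reads (33.7 to 61.4). It lay 2599 bp upstream of *Ptpn6* and 61 bp from the start site of *Grcc10*, a gene of the same dense gene cluster. Its background, 6.50 reads, was higher than the 2.43 and 2.51 reads at the other 2 peaks. Those 2 peaks, enriched 5.07-fold with 18 reads and 4.10-fold with 14, lay in intron 11. They were 14876 and 15280 bp into the gene, which spans 18.008 kb. An annotated start site of another *Ptpn6* transcript, still closer to the 3′ end of the gene, was 1996 and 1592 bp away. No other summit lay inside *Ptpn6*, and no peak was listed at its outermost 5′ end.

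**Figure D1:**
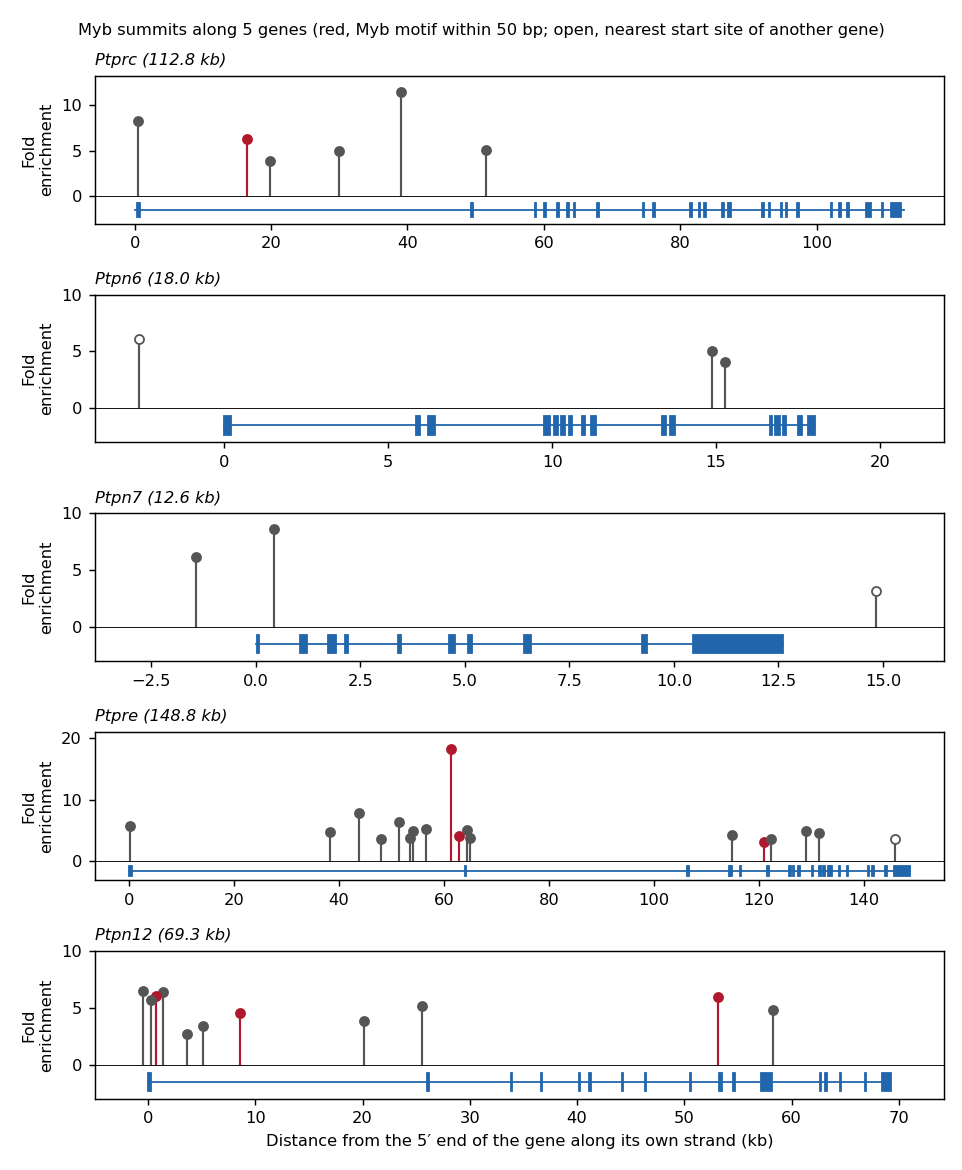
Myb summits along *Ptprc*, *Ptpn6*, *Ptpn7*, *Ptpre* and *Ptpn12*. The horizontal axes give the distance from the 5′ end of each gene along its own strand in kb, stems the fold enrichment over the IgG background, and blue boxes the exons of the longest transcript. Red stems have a Myb motif within 50 bp and open points are nearest to the start site of another gene, as in the peak upstream of *Ptpn6* with a fold enrichment of 6.07.

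The other genes of the blood class were the phosphatases *Ptpn7* and *Ptpn22* and the adaptor *Ptprcap*. *Ptpn7* encodes a phosphatase of lymphoid and myeloid cells that acts on mitogen-activated protein kinases, and its promoter carried a peak enriched 8.64-fold, on 34 reads (23.5 to 47.5), 182 bp from a start site. A second peak, 1433 bp upstream, was enriched 6.20-fold with 22 reads. The third peak of *Ptpn7*, enriched 3.14-fold with 15 reads, was 142 bp from the start site of *Arl8a*, beyond the other end of the gene. The first 2 peaks are shared with *Ptprv*, a phosphatase gene that this annotation lists as a noncoding transcript and that starts 106 bp from *Ptpn7* on the opposite strand, so they cannot be assigned to one of the pair.

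*Ptpn22* encodes a phosphatase that, with the kinase Csk, restrains antigen receptor signaling. The highest fold enrichment in its window was 13.5, on 69 reads (53.7 to 87.3), the second highest among all 90 peaks. That summit, in the peak at chr3:103912747-103917044, lay 1943 bp past the 3′ end of *Ptpn22* and 39 bp from the start site of *Rsbn1*, its neighbor. The start site of *Ptpn22* itself had a peak of 5.07-fold and 22 reads, 109 bp away. *Ptprcap* had no peak in its window. Across the 4 blood genes with a peak, the nearest protein-coding start site was the member's for 11 of the 14 peaks. The exceptions were the peaks at *Grcc10*, *Arl8a* and *Rsbn1*. The 11 include the 2 peaks that *Ptpn7* shares with *Ptprv*.

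Among the broadly expressed genes, *Ptpre* was the one with the most peaks. It encodes a phosphatase made in a receptor and a cytosolic form, and 18 Myb peaks lay along its 148.813 kb. At least as many were listed at 24 protein-coding genes of any length (0.109%), and 2.57% of genes of 50 to 200 kb had at least 10. The strongest, at chr7:135596492-135600029 in intron 1, had the highest fold enrichment of the family, 18.2, on 73 reads (57.2 to 91.8), where the background gave 2.79. No more than 81 of all peaks (0.314%) were as strong. Its summit lay 61295 bp into the gene and 5388 bp from the nearest annotated start site of *Ptpre*, and the motif CAACGG stood within its window.

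The peaks of *Ptpre* were gathered in the 5′ part of the gene. Of the 18 summits, 10 lay between 43.8 and 65.0 kb from its 5′ end, a stretch of 21.2 kb on both sides of exon 2. The stretch holds another annotated start site of *Ptpre*, with summits 595, 1758 and 2343 bp from it. The next strongest peaks there were enriched 7.89-fold with 50 reads and 6.41-fold with 32. The peak at the first exon, 75 bp from a start site, reached 5.74 with 28 reads. At the other end, the peak in the last exon was enriched 3.64-fold with 11 reads and was nearest to the start site of *Mki67*, a proliferation gene 27433 bp away.

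*Ptpn12* and *Ptprj* followed with 11 and 10 peaks. *Ptpn12* encodes PTP-PEST, a cytoplasmic enzyme that acts on adhesion proteins, and 4 of its summits lay around its start, at 486 bp upstream and at 297, 779 and 1383 bp into the gene. They were enriched 6.50-, 5.71-, 6.01- and 6.35-fold with 20, 18, 19 and 20 reads, and these 4 did not differ beyond counting error. A further peak of 5.95 with 23 reads lay 53144 bp in, with a Myb motif. *Ptprj* encodes CD148, a receptor-type phosphatase that activates Src family kinases, and 8 of its 10 summits lay within 23.4 kb at its 5′ end. Its strongest peak was enriched 6.51-fold with 23 reads, in intron 1 and 20414 bp from the 5′ end of the gene. The weakest peak of the family, 2.05 with 12 reads, was also in *Ptprj*.

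Members with at least 5 peaks were 5 of 38 (*Ptpre*, *Ptpn12*, *Ptprj*, *Ptprc* and *Ptpra*), or 13.2%, against 4.9% of all protein-coding genes. All 5 span 50 to 200 kb, and they are 5 of the 22 members of that length, where 12.4% of all genes of that length had as many. With at least 10 summits there were 3, against 0.793% of all genes and 2.57% of those of 50 to 200 kb. *Ptpra*, whose enzyme removes the same inhibitory phosphate from Src kinases as CD45 does, had 5 peaks, and the strongest, at chr2:130472747-130473494, was enriched 10.3-fold on 39 reads (27.7 to 53.3). It lay in intron 1, 22934 bp into the gene. The peak closest to the 5′ end of *Ptpra* was weak, at 2.20 with 13 reads. A fold enrichment of at least 10 was thus reached by 4 of the 90 peaks, at *Ptpre*, *Ptpn22* (by *Rsbn1*), *Ptprc* and *Ptpra*, and by 4.47% of all peaks.

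**Figure D2:**
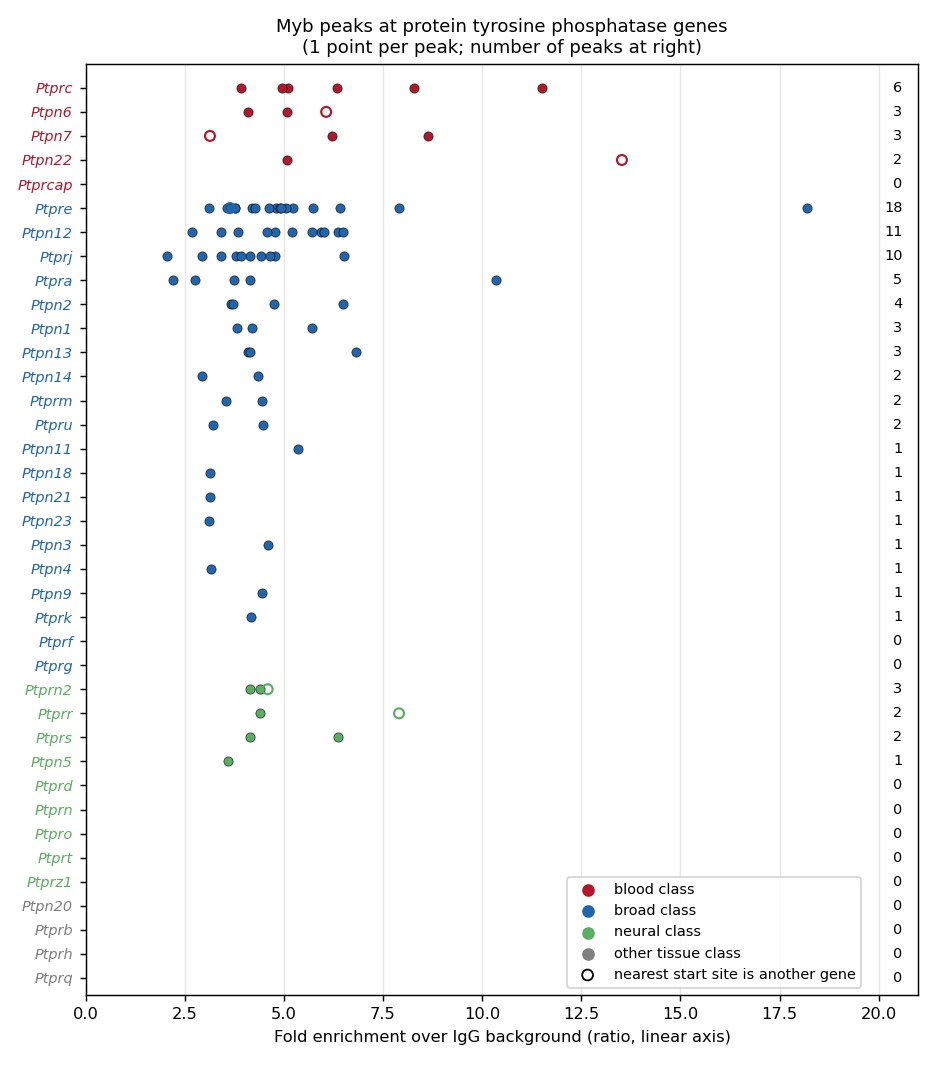
Fold enrichment over the IgG background (horizontal axis, ratio) of each of the 90 peaks, 1 point per peak and 1 row per gene, colored by class, with the number of peaks at the right. Open points are nearest to the start site of another gene, and the points of *Ptpre* reach from 3.11 to 18.2.

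The remaining broadly expressed genes had 4 peaks or fewer. *Ptpn13*, which encodes a large enzyme with several PDZ domains, had 3, the strongest at 6.81 with 21 reads in intron 5, at chr5:103490776-103491588. *Ptpn2*, whose enzyme acts on JAK kinases and STAT factors, had 4, the strongest at 6.50 with 20 reads, 382 bp upstream of its start. *Ptpn1*, which encodes PTP1B, an enzyme acting on the insulin receptor, had 3 peaks of up to 5.71. *Ptpn11*, which encodes SHP-2, a phosphatase that promotes Ras signaling downstream of growth factor receptors, had 1 peak of 5.36 with 16 reads in its first exon, 48 bp from a start site.

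Another 10 broad genes had 1 or 2 peaks, and none of these peaks was enriched more than 4.6-fold. They were the FERM domain genes *Ptpn3*, *Ptpn4*, *Ptpn14* and *Ptpn21*, the adhesion receptor genes *Ptprk*, *Ptprm* and *Ptpru*, and *Ptpn9*, *Ptpn18* and *Ptpn23*. The highest were *Ptpn3* at 4.6 with 21 reads, 149 bp from its start, and *Ptpru* at 4.47 with 13 reads, 152 bp from its start. The lowest single peaks were 3.12 at *Ptpn23* with 19 reads and 3.14 at *Ptpn18* and *Ptpn21* with 15 reads each. In the broad class, *Ptprf* and *Ptprg*, which encode adhesion-type receptors, had no peak.

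The genes placed in the neural class had few peaks, 8 over 9 genes. No expression values were at hand to check this placement. *Ptprr*, which encodes a kinase-interaction phosphatase of neurons, had the strongest, at chr10:116121448-116122174, at 7.90-fold on 24 reads (15.4 to 35.7). This summit lay in intron 2 with CAACTG in 2 places, and the nearest protein-coding start site was that of 4933416C03Rik, 7874 bp away. *Ptprs*, a receptor for proteoglycans on axons, had 2 peaks in intron 1, the stronger at 6.36 with 21 reads, 1626 bp from a start site. *Ptprn2*, which encodes a secretory granule protein, had 3 peaks of up to 4.59 on 17 reads over its 791.13 kb. That peak was nearest to the start site of *Rapgef5*, 308561 bp away. *Ptpn5*, an enzyme of striatal neurons, had 1 peak of 3.59 with 13 reads. None was listed at *Ptprd*, *Ptprn*, *Ptpro*, *Ptprt* or *Ptprz1*, and *Ptprd* and *Ptprt* are the longest members, at 2270.72 and 1139.16 kb.

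In the class of other tissues no gene had a peak. These were *Ptprb* of blood vessel endothelium, *Ptprh* of the gut epithelium, *Ptprq* of the inner ear and *Ptpn20*. The count of 0 over their 447.994 kb allows up to 0.823 peaks per 100 kb. With *Ptprcap*, *Ptprf*, *Ptprg* and the 5 neural genes, 12 members had no listed peak. The margin of 3 kb decided some cases: the summit furthest out that was counted lay 3000 bp from *Ptprj*, and the nearest left out lay 3123 bp from *Ptpn18* with a fold enrichment of 4.18. The strongest left out within 10 kb was a peak of 10.1 on 32 reads, 6169 bp beyond *Ptpn11*. At 10 kb, *Ptprh* would gain a peak of 7.67 on 32 reads, 9816 bp away. *Ptprcap* would gain 2, of 5.03 and 2.34, which lie 217 and 4 bp from the start sites of *Coro1b* and *Rps6kb2*. The weaker of these 2 has a −log10 q-value of 0.985, which is a q-value above 0.05. The blood class would then have a peak in 5 of 5 genes and the family in 28 of 38. Of all protein-coding genes, 52.6% have a peak at this margin.

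Set side by side, the classes differed in the density of peaks over the gene and its margins. The blood class had 14 peaks in 4 of 5 genes, or 6.11 per 100 kb (3.34 to 10.3). The broad class had 68 peaks in 18 of 20 genes, or 1.89 per 100 kb (1.47 to 2.40), and 1.45 (1.08 to 1.91) without *Ptpre*. The neural class had 8 peaks in 4 of 9 genes, or 0.159 per 100 kb (0.0686 to 0.313). All protein-coding genes together had 1.79 per 100 kb. The intervals of the 3 classes did not overlap. They count each peak as independent, though peaks of one gene lie close together, and leave out the spread between genes. Of the 68 broad peaks, 39 were those of *Ptpre*, *Ptpn12* and *Ptprj*. The intervals are thus no test of the classes. Left with the peaks whose nearest protein-coding start site was the member's, the blood class had 4.80 per 100 kb (2.40 to 8.59). The broad class had 1.86 (1.44 to 2.36) and the neural class 0.119 (0.0437 to 0.259). Only 2.40 against 2.36 separated the blood and broad intervals, and the blood count holds the 2 peaks shared with *Ptprv*. Whether blood and broad differ on this count thus cannot be told. The neural interval lay below both.

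**Figure D3:**
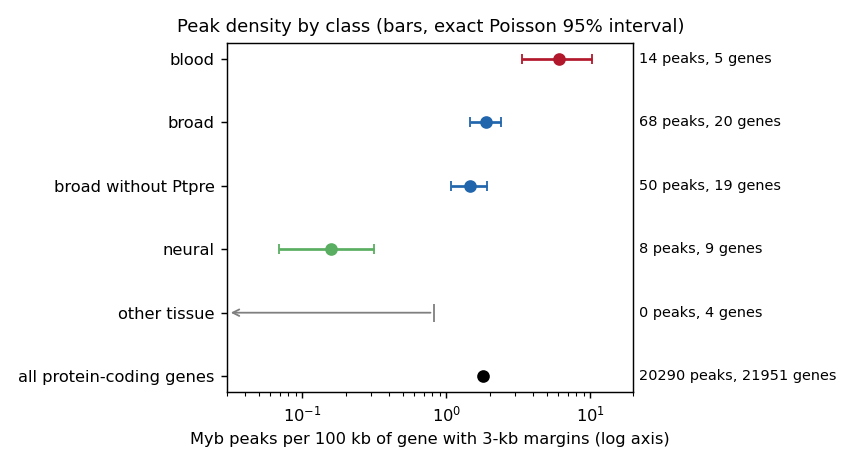
Myb peaks per 100 kb of gene with its 3-kb margins (horizontal log axis) by class. Points are the density, bars the exact Poisson interval and the arrow the upper limit for a count of 0; the blood class lies at 6.11 and the neural class at 0.159, with all protein-coding genes at 1.79.

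Gene length moved with the class. Median spans were 18.008 kb in the blood, 94.5 kb in the broad and 210.9 kb in the neural class, and all genes under 50 kb had 3.90 summits per 100 kb, those of 50 to 200 kb 1.90 and those over 200 kb 0.554. Under 50 kb, 5 of 7 members had a peak, against 42.3% of all genes of that length. From 50 to 200 kb, 17 of 22 members had one, against 61.5%, and over 200 kb, 4 of 9, against 55.4%.

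The classes were then compared within each length range. Under 50 kb, the 3 blood genes *Ptpn6*, *Ptpn7* and *Ptprcap* had 6 summits, or 11.6 per 100 kb (4.25 to 25.2), and the 3 broad genes 5, or 4.79 (1.55 to 11.2), and these intervals overlapped. From 50 to 200 kb, the 2 blood genes, *Ptprc* and *Ptpn22*, had 8 summits, or 4.51 per 100 kb (1.95 to 8.89), and the 14 broad genes 60, or 3.80 (2.90 to 4.89). The blood and broad intervals overlapped here too. Overlap of intervals is no test, so whether the 2 classes differ at either length was not tested. Both blood counts include peaks at start sites of neighbors, *Grcc10* and *Arl8a* in the shorter range and *Rsbn1* in the longer. The 3 neural genes there, *Ptpn5*, *Ptprs* and *Ptprz1*, had 3 summits, or 0.951 per 100 kb (0.196 to 2.78), and *Ptprb*, *Ptprh* and *Ptpn20* had none. The broad and neural intervals did not overlap at this length with all 14 broad genes. Without *Ptpre* alone, the broad genes had 2.95 per 100 kb (2.13 to 3.99), which overlaps the neural interval. Of the 60 broad summits, 39 were those of *Ptpre*, *Ptpn12* and *Ptprj*. The other 11 genes had 21, or 1.76 per 100 kb (1.09 to 2.70), which overlaps it too. Both values are lower by construction, since the genes with the most peaks were left out.

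Over 200 kb the broad and neural intervals overlapped. The 3 broad genes *Ptprg*, *Ptprk* and *Ptprm* had 0.157 summits per 100 kb (0.0323 to 0.457) and the 5 neural genes 0.106 (0.0346 to 0.248), and both lay below the 0.554 of all genes of this length.

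**Figure D4:**
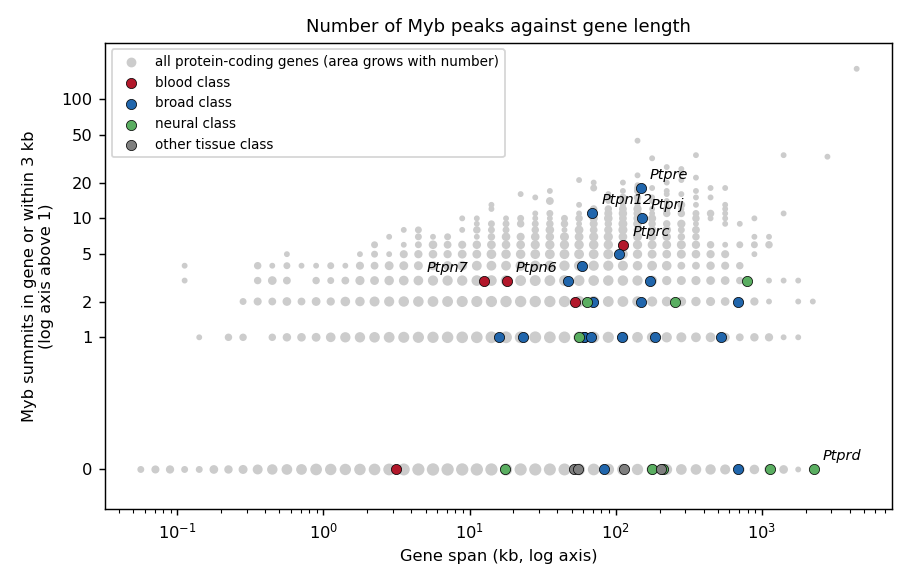
Number of Myb summits in each gene or within 3 kb of it (vertical axis, logarithmic above 1) against gene span in kb (horizontal log axis). Colored points are the 38 phosphatase genes by class and gray points all protein-coding genes, with a larger area for more genes; *Ptpre* stands at 18 summits and *Ptprd*, the longest member, at 0.

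Most of the peaks lay within introns. Of the 90, 73 were in an intron of the longest transcript, 42 of them in the first, 6 in an exon, 9 upstream and 2 downstream. A start site of the same gene lay within 3 kb for 39 peaks. Counted by gene, 18 of 38 members had a peak there, or 47.4%, against 39.9% of all protein-coding genes. With start sites of any gene, 48.9% of member peaks (38.2 to 59.7) lay within 3 kb, compared with 57.6% of all peaks, a value inside that interval. The nearest protein-coding start site belonged to the member for 84 of the 90. Since the rule takes only summits in a gene or within 3 kb of it, this count and that of introns are partly set by the rule. Neither has a share over all genes beside it.

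The strength of the peaks was ordinary. The median fold enrichment was 4.43 over member peaks and 4.51 over all peaks, with medians of 16.5 and 18 reads. By class, the medians were 5.58 in the blood, 4.23 in the broad and 4.40 in the neural class. The class ranges overlapped (3.14 to 13.5, 2.05 to 18.2 and 3.59 to 7.90). Both ends of the blood range were peaks nearest to neighboring genes, *Arl8a* and *Rsbn1*. A q-value above 0.05 was held by 8 member peaks (8.89%), where the share was 7.24% of all peaks, and these weakest calls included 1 peak of 2.05 in *Ptprj* and 1 of 2.20 at *Ptpra*. The blood class had a −log10 q-value of at least 5 in 8 of its 14 peaks, among them the peaks at *Rsbn1* and *Grcc10*. The broad class had one in 23 of 68 (33.8%) and the neural class in 2 of 8. The share over the peaks of all protein-coding genes was 42.7%.

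**Figure D5:**
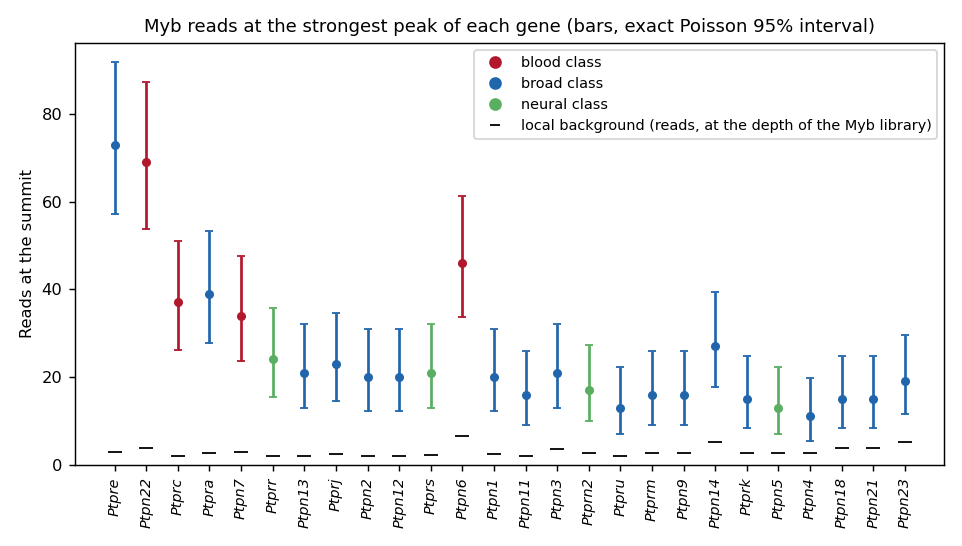
Reads at the summit of the strongest peak of each of the 26 genes with a peak (points, vertical axis), with exact Poisson intervals as bars and the local background at the depth of the Myb library as dashes. Genes are ordered by fold enrichment; *Ptpre* and *Ptpn22* hold 73 and 69 reads, and *Ptpn6* holds 46 over a higher background of 6.50.

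The full Myb motif stood within 50 bp of 13 of the 90 summits, or 14.4% (7.92 to 23.4), and of 16.7% of all summits. In windows 500 bp to either side the share was 12.8% for members and 10.5% for all peaks, so an excess of the motif at member summits over their own surroundings was not detectable with this number of peaks. The 13 motif peaks fell in 7 members, and 19 members had peaks but none with the motif, *Ptpn6*, *Ptpn7* and *Ptpn22* among them. Motifs of other blood factors were counted in the same windows. An ETS motif (GGAA after A or C and before A or G) stood at 35.6% of member summits and 33.5% of all summits, and a RUNX motif (TGNGGT with T or C as N) at 8.89% and 12.2%.

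A GATA motif (GATAA after A or T) was found at 24.4% of member summits (16.0 to 34.6), above the 13.8% of all summits. Away from start sites, 17 of 46 member summits, or 37.0% (23.2 to 52.5), had a GATA motif, against 18.9% of all such peaks, while within 3 kb of a start site the shares were 11.4% (3.79 to 24.6) and 10.1%. Whether the excess differed between these places was not tested. The 17 were spread over 8 members, with 4 in *Ptpn12* and 4 in *Ptpre*, 2 each in *Ptpn13*, *Ptprj* and *Ptprn2*, and 1 each in *Ptprc*, *Ptprm* and *Ptpn5*. Without *Ptpre* and *Ptpn12* the share was 9 of 28, or 32.1%. It is given without an interval, and whether an excess remained without these genes was not tested. Peaks of one gene lie close together and are not independent, several motifs were tried, and no test was made.

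Other genes of the pathway served as a frame. Src family kinases are substrates of CD45, and genes for these kinases and their regulators were looked up in the same way. *Csk*, which encodes the kinase that sets the inhibitory phosphate, had 5 with a highest fold enrichment of 8.80 on 33 reads, *Pag1*, which anchors Csk at the membrane, had 7 of up to 4.27, and *Lyn* had 4 of up to 5.29. *Fyn*, *Src* and *Yes1* had 1 each, and *Blk*, *Fgr* and *Lck* had none.

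Among 14 receptors and adaptors that recruit SHP-1 or SHP-2, 8 had a peak. The inhibitory receptor genes *Cd33* and *Clec12a* had peaks of up to 11.9-fold on 45 reads and 11.1-fold on 42 reads, nearest to their own start sites. *Pecam1* had 9 peaks of up to 13.1, the strongest nearest to *Milr1*, and the adaptor genes *Frs2* and *Gab2* had 7 of up to 9.42 and 5 of up to 10.4, the strongest of *Gab2* nearest to *Usp35*. *Gab1*, *Gab3* and *Lair1* had 1 each. None was listed at *Cd22*, *Cd72*, *Ceacam1*, *Lilrb4a*, *Pirb* or *Sirpa*.

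Of 24 dual specificity phosphatase genes, which act on mitogen-activated protein kinases and other substrates, 12 had a peak, or 50%, near the 46.4% of all genes. *Dusp1* had 6 of up to 13.9 on 66 reads, counted over the 56.5 kb that this annotation gives the gene, with 2 of them at a start site, *Dusp16* had 4 of up to 9.57, *Dusp5* had 2 of up to 9.15 and *Dusp6* had 5 of up to 7.75. The shares of this list and of the receptors and adaptors, 50% and 57.1%, were below the 68.4% of the tyrosine phosphatases, though their genes are shorter, with median spans of 12.96 and 31.0 kb against 94.5 kb.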

How the data were processed

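Before deposit, the authors used cutadapt 1.15 to trim, BWA 0.7.13 to align to mm10 and Picard to remove duplicates. Peaks were called with MACS2 2.1.1.20160309 against the IgG library (versions per the labels). Calls that overlapped between pseudo-replicates of the 1 Myb library were kept, with a stated q-value below 0.05. In the deposited list, 7.24% of peaks nevertheless have a q-value above 0.05. Tn5 added the adapters. In the deposited list, the fold enrichment is a ratio of the scaled Myb pileup plus 1 to the local background plus 1. The p-value and q-value were deposited as −log10 values, and the deposited score was not used. No separate values of the IgG library were used, and the depth of the libraries is not stated.

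Reads at each summit were recovered from fold enrichment and p-value together with 1 scale, 0.769, which gave whole reads in 100% of rows (tolerance 0.002 on the −log10 p-value), after a test on simulated data. Read intervals are exact Poisson and intervals of shares exact Clopper-Pearson, both at 95%. Summits were assigned to GENCODE vM21 with Python 3.11.15, pandas 2.3.3, numpy 2.4.6 and scipy 1.17.1. Exon and intron numbers are those of the longest protein-coding transcript, and distances to a start site use every annotated start of the gene. Density is summits per 100 kb of gene plus margins. Summit sequences came from RefSeq GRCm38.p6.

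The members, classes and lists were chosen with earlier results of these data known. Values were printed for all blood genes, the 10 members with the strongest peaks, members with at least 5 peaks and neural members with a peak; the other values were chosen after they were seen. No protein sequences were used, so the planned search for the active site was not run. Alternatives covered the q-value, margin, promoter window, assignment and motif form. Of the list of Src family kinases and regulators, 1 gene is not reported here, so no share is given for that list.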

Additional observations from a re-analysis of the deposited data

How the results depend on the processing

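At a −log10 q-value of at least 5, 16 members kept a peak, with 33 peaks in all, while 30.1% of all protein-coding genes did. Members with a promoter peak numbered 11, a count with no share over all genes beside it at this cutoff. Broad members with a peak numbered 10 and neural members with a peak 2. The blood class stayed at 4, where Ptpn6 was kept only by a peak at the start site of a neighbor. Ptprc then had 3 peaks and Ptpn6 had 1, the one at Grcc10. A margin of 10 kb gave Ptpn6 5 peaks, the added 2 lying at the start sites of Atn1 and Emg1. The Myb motif share at member summits was 3.33% in windows of 25 bp, 33.3% in windows of 100 bp and 52.2% with AACNG, where all summits had 8.68%, 30.0% and 54.3%. The other alternatives, which were a −log10 q-value of at least 2, any overlap of the peak, the gene body alone, a promoter window of 1 kb, nearest start sites alone and leaving out Ptprcap, and a q-value of at most 0.05 and leaving out Ptpre (both chosen after seeing the data), moved each count by less than 1.5 times, except that *Ptpn6* had 2 peaks in place of 3 with the gene body alone or with nearest start sites alone. No paired analysis was possible because each precipitate had 1 library and no test was made. Depth limits the list: the lowest read number at a member summit was 9, so absence of a listed peak does not show absence of binding.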
